A study of Mus musculus with 36 samples.

Results

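Nanog, Esrrb, Tfcp2l1, Prdm14, Zfp42, Nr5a2, Nr0b1 and Tcl1 are genes of the naive pluripotency circuit of mouse cells. These 8 of the 55401 genes in the files were found by their symbols in the GENCODE annotation of GRCm38, whatever their values, and followed in all 36 libraries of 12 groups. Poly(A) RNA was measured in C57BL/6 mouse embryonic stem cells (ESCs) and in epiblast-like cells (EpiLCs) made from them, in lines without accessory proteins of Polycomb repressive complex 2 (PRC2). ESCs were kept with serum, leukaemia inhibitory factor and the inhibitor pair known as 2i, and EpiLCs were harvested on day 2 of culture in activin A (20 ng/mL) plus bFGF (12 ng/mL). J2KO cells have no JARID2 and J2WT is their wild-type control. QKO cells have neither JARID2 nor the 3 Polycomb-like proteins (MTF2, PHF1 and PHF19), TKO cells are without those Polycomb-like proteins only, and both have PclWT as their control. These 5 lines were measured as EpiLCs and as ESCs. Pcgf2/4 KO cells, without the PRC1 subunits PCGF2 and PCGF4, and their WT control were measured as EpiLCs only. Each group had 3 libraries. The sources used here say neither whether a line is 1 clone nor which line the WT of the Pcgf2/4 KO is. Nor do they say if replicate libraries were separate cultures, so the spread behind the p-values may be technical only.

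Naive pluripotency is the state of the preimplantation epiblast, in which a network of transcription factors keeps itself active and holds differentiation genes back. When cells move toward the formative state, which EpiLCs model, these factors are shut off within days while general pluripotency factors such as OCT4 stay on. PRC2 methylates lysine 27 of histone H3, a mark of repressed genes. PRC2.1 carries a Polycomb-like protein and PRC2.2 carries JARID2, and PRC1 complexes with PCGF2 or PCGF4 read the mark. The comparisons asked how far each of the 8 genes was silenced in EpiLCs of each line, and how far this silencing fell short in each mutant.

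Each library held 6784578 to 18026492 counts in genes, with the J2 lines the deepest at 15924615 or more and the PclWT, TKO and QKO lines at 11253158 or fewer. Outside PclWT EpiLCs, 41 to 245 genes lay over 2-fold apart between replicates of a group. PclWT EpiLC replicate 1 stood apart, with 1756 and 1978 genes over 2-fold from the other replicates, so the calls of the 8 genes against PclWT EpiLCs are also given without it. QKO EpiLC replicate 2 differed too by a chi-square of counts per gene, 30.04 and 35.61, against 2.03 between replicates 1 and 3. Only 156 genes lay over 2-fold from either of them. That library also had the largest share of reads left out of the counts, 30.24%. Mtf2 averaged 36.7 ± 2.12 CPM (counts relative to library size, SD, n = 3) in QKO EpiLCs and 44.3 ± 4.2 CPM in TKO EpiLCs, against 223 ± 22.4 CPM in PclWT EpiLCs. Jarid2 averaged 508 CPM in J2KO EpiLCs against 769 CPM in J2WT EpiLCs, but 492 CPM in QKO EpiLCs against 386 CPM in PclWT EpiLCs. Counts over a whole gene include exons outside a deleted stretch, and the sources used here do not say which stretch was removed, so Jarid2, Pcgf2 and Bmi1 counts do not check these labels. Formative and primed marker genes were called higher in EpiLCs in every line, from 6 of 11 tested in QKO to 12 of 12 in J2WT, where 12.2% and 15.4% of all genes tested were called higher. In bulk RNA, fewer naive cells and less RNA per cell cannot be told apart.

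The 8 genes lie on 5 chromosomes of GRCm38. Nanog (ENSMUSG00000012396, chromosome 6, 122707489 to 122714633) encodes a homeodomain factor at the centre of the circuit. Esrrb (ENSMUSG00000021255, chromosome 12, 86361117 to 86521628) encodes an orphan nuclear receptor that NANOG activates. Tfcp2l1 (ENSMUSG00000026380, chromosome 1, 118627945 to 118685168) encodes a grainyhead-family factor downstream of LIF. Prdm14 (ENSMUSG00000042414, chromosome 1, 13113457 to 13127163) encodes a repressor of differentiation genes that is also needed for germ cells. Zfp42 (ENSMUSG00000051176, chromosome 8, 43295063 to 43306980), also called Rex1, encodes a zinc finger protein widely used as a marker of the naive state. Nr5a2 (ENSMUSG00000026398, chromosome 1, 136842571 to 136960448) and Nr0b1 (ENSMUSG00000025056, chromosome X, 86191764 to 86195947) encode nuclear receptors, and NR0B1, also called DAX1, lacks a usual DNA-binding domain and acts mostly as a corepressor. Tcl1 (ENSMUSG00000041359, chromosome 12, 105216750 to 105222793) encodes a coactivator of the kinase AKT.

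Promoter sequences from RefSeq (GRCm38.p6), running 250 bases before to 50 bases after a gene's start, were at hand for the members other than Prdm14. The Nanog and Zfp42 promoters are shown because both hold the octamer TTTGCAT, the core of the site that OCT4 binds, which occurs on either strand in 4.63% of 32851 promoters. In the first Nanog promoter (chr6:122707239-122707538, plus strand) a SOX motif, ACAATG, follows the octamer without overlapping it. Capitals mark both motifs in Nanog and the octamer in Zfp42 (chr8:43306960-43307259, minus strand).
Nanog: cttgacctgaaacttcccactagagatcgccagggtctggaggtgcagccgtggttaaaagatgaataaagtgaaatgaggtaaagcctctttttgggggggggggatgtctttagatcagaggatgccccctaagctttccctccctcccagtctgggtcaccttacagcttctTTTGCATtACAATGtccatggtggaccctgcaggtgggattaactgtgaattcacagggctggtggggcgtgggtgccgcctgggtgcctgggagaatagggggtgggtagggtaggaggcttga
Zfp42: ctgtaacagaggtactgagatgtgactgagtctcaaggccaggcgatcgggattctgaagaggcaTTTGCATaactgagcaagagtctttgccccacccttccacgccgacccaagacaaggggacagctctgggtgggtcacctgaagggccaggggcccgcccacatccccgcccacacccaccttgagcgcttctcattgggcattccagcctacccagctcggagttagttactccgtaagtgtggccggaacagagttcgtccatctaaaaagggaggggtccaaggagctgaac
The SOX motif, found in 12.6% of promoters, was also present at 1 start of Esrrb, on the other strand. The Tfcp2l1 promoter (chr1:118627695-118627994, plus strand) is shown because it held the most CpG dinucleotides among the members, 21 in 300 bases, which was more than in 75.2% of promoters. Capitals mark its CpGs.
Tfcp2l1: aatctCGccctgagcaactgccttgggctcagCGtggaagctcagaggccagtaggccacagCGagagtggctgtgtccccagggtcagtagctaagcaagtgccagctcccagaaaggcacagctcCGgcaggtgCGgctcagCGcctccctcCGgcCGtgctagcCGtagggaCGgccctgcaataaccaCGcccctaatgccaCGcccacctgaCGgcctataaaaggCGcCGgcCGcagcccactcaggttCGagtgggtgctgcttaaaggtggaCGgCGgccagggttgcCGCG
Nr0b1 had 14 CpGs, Zfp42 and Tcl1 had 11 each, both Esrrb starts had 7, Nanog had 4 and the starts of Nr5a2 had 2 and 7, against a median of 7 over all promoters. A KLF motif, GGGNGTGG, was found in Tfcp2l1, Nanog, Zfp42 and the second Nr5a2 start, and in 17.6% of all promoters. The letters AAGGTCA, bound by ESRRB and NR5A2 and present in 4.72% of promoters, were in none of the members' windows. These matches describe the letters only and say nothing about binding.

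In ESCs the 8 genes spanned a wide range of levels. Per kilobase of exon, J2WT ESCs had the most Nanog, at 343 ± 6.6 RPKM (CPM per kilobase of exon, SD, n = 3). Zfp42 followed at 252 ± 5.09 RPKM and Esrrb at 167 ± 4.29 RPKM. Prdm14 was the lowest, at 18.2 ± 0.378 RPKM, just under Nr5a2 at 23.3 ± 1.18 RPKM. For 6 of the 8 genes, every ESC group averaged more CPM than every EpiLC group. The exceptions were Zfp42, whose 103 ± 2.45 CPM in J2KO EpiLCs exceeded 96.0 ± 3.08 CPM in PclWT ESCs, and Nr0b1, at 98.4 ± 1.93 CPM in J2KO EpiLCs against 79.3 ± 4.41 CPM in PclWT ESCs. Among the 7 EpiLC groups, QKO averaged the most Nanog, Esrrb, Tfcp2l1, Prdm14, Nr5a2 and Tcl1, and J2KO the most Zfp42 and Nr0b1. For Nanog, Esrrb and Tfcp2l1 the next groups were Pcgf2/4 KO and TKO, whose ranges of libraries overlapped each other. QKO EpiLC libraries overlapped those of no other EpiLC group for Nanog, Esrrb, Tfcp2l1, Prdm14 and Nr5a2, while for Tcl1 they overlapped PclWT EpiLCs. How many of all genes had groups separated in this way was not counted, here or below.

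**Figure D1:**
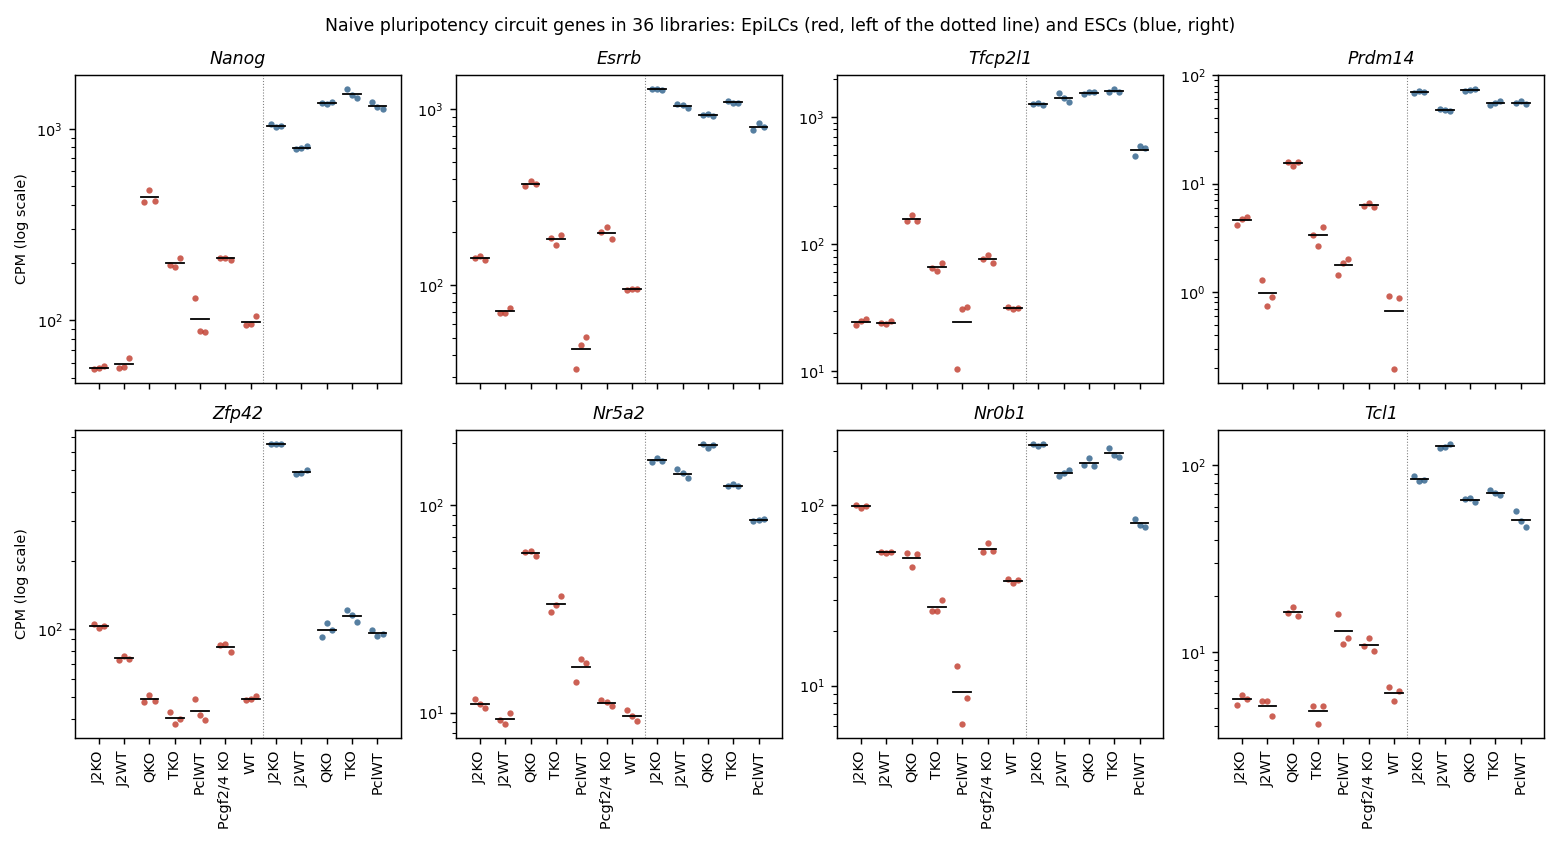
CPM of each of the 8 genes in every library, on log axes, with the EpiLC groups in red left of the dotted line and the ESC groups in blue right of it. Points are libraries and bars are means of 3, and QKO EpiLCs sit above the other EpiLC groups for Nanog, Esrrb, Tfcp2l1, Prdm14 and Nr5a2.

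All 8 genes fell in EpiLCs of every line, with differences called where edgeR's quasi-likelihood test gave an adjusted p under 0.05 and the fold was over 2. Of all genes tested, 12% were called lower in J2KO, 14.8% in J2WT, 7.02% in QKO, 8.61% in TKO and 6.2% in PclWT. The members' median log2 difference was -3.89 in J2KO, -3.88 in J2WT, -1.72 in QKO, -2.86 in TKO and -3.39 in PclWT, while the median over all genes was near 0 in each line. No EpiLC library of a line overlapped an ESC library of that line for any member, but the share of all genes so separated was not counted. Without PclWT EpiLC replicate 1, all 8 genes were still called lower in PclWT, where 6.82% of all genes tested were.

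Tfcp2l1 was the gene with the deepest fall in most lines. It had 23.3, 24.7 and 25.8 CPM in J2KO EpiLCs against 1272, 1299 and 1246 CPM in J2KO ESCs, and 23.8, 23.7 and 25.0 CPM in J2WT EpiLCs against 1545, 1402 and 1315 CPM in J2WT ESCs. Its log2 difference was -5.67 (SE 0.04) in J2KO and -5.85 (SE 0.06) in J2WT. In QKO it had 152, 168 and 152 CPM in EpiLCs against 1528, 1563 and 1574 CPM in ESCs, a fall of 3.30 on the log2 scale (SE 0.04). Every QKO EpiLC library held more Tfcp2l1 than every EpiLC library of the J2 lines. The log2 difference was -4.57 (SE 0.06) in TKO and -4.48 (SE 0.43) in PclWT, and the wide error in PclWT came with replicate 1 at 10.5 CPM beside 30.7 and 31.9 CPM.

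Nanog had a log2 difference of -4.17 in J2KO (SE 0.03) and -3.72 in J2WT (SE 0.04). It was -1.62 in QKO (SE 0.05), -2.91 in TKO (SE 0.05) and -3.68 in PclWT (SE 0.20), so among these 5 lines Nanog fell least in QKO. QKO EpiLCs kept 416, 481.5 and 421 CPM of Nanog, against 1355, 1344 and 1381 CPM in QKO ESCs. Esrrb had log2 differences of -3.16 in J2KO, -3.85 in J2WT, -1.29 in QKO, -2.54 in TKO and -4.17 in PclWT. QKO EpiLCs kept 366, 387 and 373 CPM of Esrrb, against 919, 931 and 912 CPM in QKO ESCs. Prdm14 had log2 differences of -3.91 in J2KO, -5.60 in J2WT, -2.24 in QKO, -4.03 in TKO and -4.96 in PclWT. By these values each mutant line fell less than its own control for Nanog, Esrrb and Prdm14, apart from Nanog in J2KO.

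Among the remaining members, Nr0b1 and Nr5a2 had a smaller fall in each mutant than in its own control by these values, and Zfp42 and Tcl1 did not in every mutant. Tested directly, the difference did not pass for Nr5a2 in J2KO (0.03, SE 0.10) or for Nr0b1 in TKO (0.26, SE 0.26). Zfp42 had log2 differences of -2.64 in J2KO and -2.70 in J2WT but of -1.01 in QKO, -1.46 in TKO and -1.13 in PclWT, where it began from 92.2 to 121 CPM in ESCs against 479.9 to 655 CPM in ESCs of the J2 lines. Zfp42 in QKO was near the 2-fold limit, and its call was lost without QKO EpiLC replicate 1 or 3 or QKO ESC replicate 2, at log2 differences of -0.98, -0.99 and -0.97. Nr0b1 fell least in the J2 lines, with log2 differences of -1.12 in J2KO and -1.44 in J2WT and of -1.73 in QKO, -2.81 in TKO and -3.10 in PclWT. For Nr5a2 they were -3.88 in J2KO, -3.90 in J2WT, -1.72 in QKO, -1.86 in TKO and -2.34 in PclWT. For Tcl1 they were -3.90 in J2KO, -4.59 in J2WT, -2.00 in QKO, -3.85 in TKO and -1.97 in PclWT. Line and sequencing depth differ together between the J2 and PclWT families and cannot be told apart.

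The share of the ESC level that was left in EpiLCs shows the same data on a linear scale. QKO EpiLCs kept a median of 30.1% over the 8 genes, ranging from 10.1% for Tfcp2l1 to 49.5% for Zfp42. TKO EpiLCs kept a median of 13.5% and PclWT EpiLCs a median of 9.65%, while the medians of J2KO and J2WT were 6.64% and 6.71%. Esrrb kept 40.8% in QKO and 16.8% in TKO, against 5.49% in PclWT. Nanog kept 32.3% in QKO and 13.0% in TKO, against 7.71% in PclWT. Prdm14 kept 20.9% in QKO and 6.04% in TKO, against 3.14% in PclWT, and it kept 6.53% in J2KO against 2.02% in J2WT. Zfp42 kept 49.5% in QKO and 35.4% in TKO, but PclWT also kept 45.3% of it. Tcl1 kept 25.0% in QKO and 6.76% in TKO, against 25.3% in PclWT. For Zfp42 and Tcl1 the share in PclWT was thus close to that in QKO. The median in PclWT was 7.93% without PclWT EpiLC replicate 1, with 6.63% for Nanog, 6.12% for Esrrb, 3.44% for Prdm14, 42.4% for Zfp42 and 22.4% for Tcl1.

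**Figure D2:**
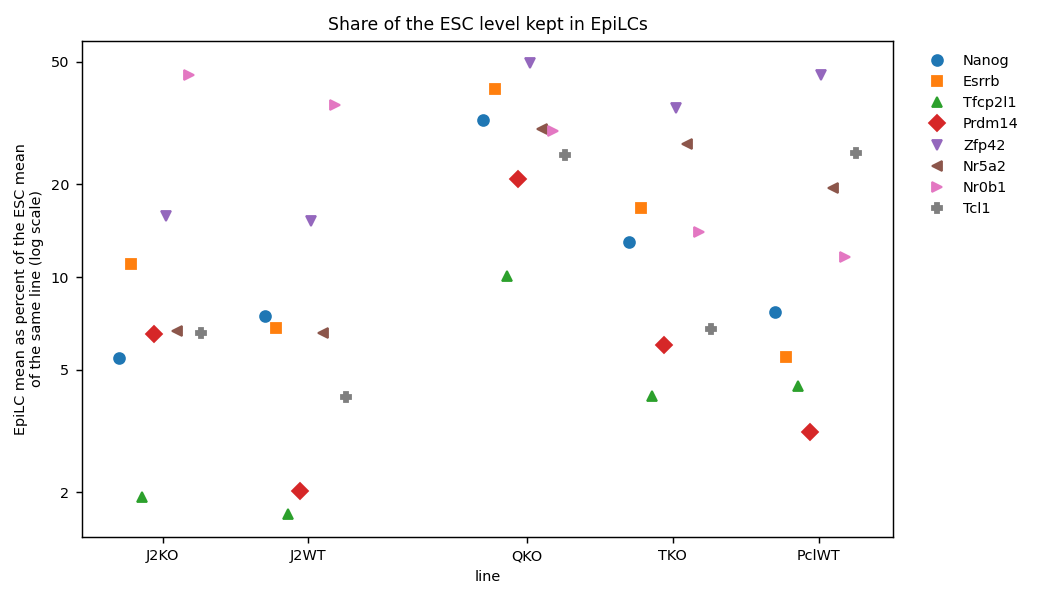
Mean EpiLC level as a percent of the mean ESC level in 5 lines, on a log axis, with 1 marker for each gene. The markers of QKO lie between 10.1% and 49.5% and those of J2WT between 1.70% and 36.3%.

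In EpiLCs without JARID2, Prdm14 and Esrrb were the members that rose over 2-fold, 2 of 8, where 6.09% of all genes tested were called higher. Prdm14 had 4.11, 4.74 and 4.92 CPM in J2KO EpiLCs, against 1.28, 0.736 and 0.894 CPM in J2WT EpiLCs. The groups did not overlap, and the fold was 4.71 (log2 2.24, SE 0.21, edgeR adjusted p = 3.11e-10). Esrrb had 143, 146 and 138 CPM in J2KO EpiLCs, against 69.1, 69.7 and 74.6 CPM in J2WT EpiLCs. Every J2KO library lay above every J2WT library, at a log2 difference of 1.01 (SE 0.04, edgeR adjusted p = 1.29e-18). That difference sits at the 2-fold limit, and Esrrb lost its call at 0.99 or 1.00 when J2WT EpiLC replicate 1 or 2 or J2KO EpiLC replicate 2 was left out. Nr0b1 had 100.1, 96.3 and 99.0 CPM in J2KO EpiLCs, against 55.2, 54.4 and 55.0 CPM in J2WT EpiLCs, a difference under 2-fold that passed at adjusted p (log2 0.85, SE 0.04, edgeR adjusted p = 1.19e-16). Zfp42 at 0.48 and Nr5a2 at 0.25 were also higher by under 2-fold. Nanog did not pass, with 56.1, 56.7 and 57.7 CPM in J2KO EpiLCs against 56.7, 56.9 and 63.9 CPM in J2WT EpiLCs, nor did Tfcp2l1 at a log2 difference of 0.03 (SE 0.06) or Tcl1 at 0.12 (SE 0.13). Libraries of both groups overlapped for these 3 genes.

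In EpiLCs without both the Polycomb-like proteins and JARID2, 6 of the 8 genes rose over 2-fold, where 6.12% of all genes tested were called higher. They were Nanog, Esrrb, Tfcp2l1, Prdm14, Nr5a2 and Nr0b1, the members that are transcription factors or nuclear receptors other than Zfp42. Prdm14 had 15.9, 14.5 and 15.8 CPM in QKO EpiLCs, against 1.42, 1.84 and 2.00 CPM in PclWT EpiLCs, a fold of 8.45 (log2 3.08, SE 0.17, edgeR adjusted p = 1.27e-04). Esrrb had a fold of 8.40, with the QKO libraries given above against 33.6, 45.7 and 51.05 CPM in PclWT EpiLCs (log2 3.07, SE 0.17, edgeR adjusted p = 1.27e-04). The groups lay far apart for both genes. Tfcp2l1 had a log2 difference of 2.65 (SE 0.38, edgeR adjusted p = 2.75e-03). Nanog, at 130.3, 87.9 and 86.9 CPM in PclWT EpiLCs, had a log2 difference of 2.07 (SE 0.20, edgeR adjusted p = 7.11e-04). In both the PclWT replicate that stood apart was the odd one, low for Tfcp2l1 and high for Nanog.

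The other members of the QKO comparison divided into the nuclear receptors, which rose, and Zfp42 and Tcl1, which did not pass. Nr0b1 had 54.6, 45.7 and 53.6 CPM in QKO EpiLCs, against 12.9, 6.14 and 8.51 CPM in PclWT EpiLCs (log2 2.44, SE 0.27, edgeR adjusted p = 1.11e-03). Nr5a2 had 59.6, 60.2 and 56.7 CPM in QKO EpiLCs, against 14.0, 18.2 and 17.4 CPM in PclWT EpiLCs (log2 1.79, SE 0.13, edgeR adjusted p = 2.67e-04). No QKO library overlapped a PclWT library for either gene. Zfp42 had 47.9, 51.0 and 48.3 CPM in QKO EpiLCs, against 49.0, 41.9 and 39.6 CPM in PclWT EpiLCs (log2 0.13, SE 0.13). Tcl1 had 16.1, 17.3 and 15.65 CPM in QKO EpiLCs, against 16.0, 11.05 and 11.8 CPM in PclWT EpiLCs (log2 0.29, SE 0.18). PclWT EpiLC replicate 1, the highest of its group for both genes, reached the range of the QKO libraries. Without that replicate the same 6 genes were called, with log2 differences of 2.31 for Nanog, 2.93 for Esrrb, 2.30 for Tfcp2l1, 2.97 for Prdm14, 1.70 for Nr5a2 and 2.79 for Nr0b1. That fit called 6.82% of all genes tested higher. Zfp42 at 0.24 and Tcl1 at 0.49 then passed at adjusted p but stayed under 2-fold.

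In EpiLCs without the Polycomb-like proteins alone, Esrrb, Nr0b1 and Tfcp2l1 rose over 2-fold and Tcl1 fell, where 6.91% of all genes tested were called higher and 7.16% lower. This comparison shares its PclWT libraries with that of QKO. Esrrb had 185, 169 and 193 CPM in TKO EpiLCs (log2 2.03, SE 0.16, edgeR adjusted p = 4.08e-04). Nr0b1 had 25.9, 25.9 and 29.6 CPM in TKO EpiLCs (log2 1.52, SE 0.27, edgeR adjusted p = 6.07e-03). TKO libraries lay above the PclWT values for both genes. Tfcp2l1 had 64.9, 61.8 and 71.2 CPM in TKO EpiLCs (log2 1.40, SE 0.36, edgeR adjusted p = 0.0255), and its call was lost without any 1 of the TKO EpiLC replicates, at adjusted p from 0.0740 to 0.0874. Tcl1 had 5.16, 4.12 and 5.11 CPM in TKO EpiLCs, below every PclWT library (log2 -1.47, SE 0.21, edgeR adjusted p = 2.81e-03). Nanog, at 194.5, 189 and 212 CPM in TKO EpiLCs, was higher by under 2-fold (log2 0.92, SE 0.19), as were Nr5a2 (0.98) and Prdm14 (0.87), while Zfp42 did not pass (-0.14). Without PclWT EpiLC replicate 1, Nanog was called as well at 1.15, beside Esrrb at 1.88, Nr0b1 at 1.85 and Tfcp2l1 at 1.04, and Tcl1 was again lower at -1.28. That fit called 7.07% of all genes tested higher and 5.91% lower.

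QKO EpiLCs held more of all 8 genes than TKO EpiLCs, and 5 of them passed 2-fold, where 1.46% of all genes tested were called higher. This comparison asks what the loss of JARID2 adds to the loss of the Polycomb-like proteins, and it uses no PclWT library. Prdm14, at 15.9, 14.5 and 15.8 CPM in QKO EpiLCs and 3.38, 2.68 and 3.97 CPM in TKO EpiLCs, had a fold of 4.56 (log2 2.19, SE 0.15, edgeR adjusted p = 1.15e-10). Tcl1 had a fold of 3.31 (log2 1.73, SE 0.13), Tfcp2l1 of 2.34 (log2 1.23, SE 0.05) and Nanog of 2.16 (log2 1.11, SE 0.06). Esrrb had a log2 difference of 1.01 (SE 0.05) and fell under the 2-fold limit without QKO EpiLC replicate 2, at 0.99, or without TKO EpiLC replicate 2, at 0.96. Nr0b1 (0.90), Nr5a2 (0.79) and Zfp42 (0.24) were higher by under 2-fold. For all 8 genes the lowest QKO library lay above the highest TKO library, but the share of all genes so separated was not counted.

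Pcgf2/4 KO EpiLCs showed rises of Prdm14, Tfcp2l1, Nanog and Esrrb, 4 of the 8 genes, where 1.91% of all genes tested were called higher. Prdm14 had 6.24, 6.69 and 6.055 CPM in Pcgf2/4 KO EpiLCs, against 0.924, 0.196 and 0.871 CPM in WT EpiLCs (log2 3.23, SE 0.27, edgeR adjusted p = 2.80e-11). The WT values rest on 10, 2 and 9 reads, so Prdm14 passed the filter on low counts only through the Pcgf2/4 KO libraries. Nanog had 213, 213 and 207 CPM in Pcgf2/4 KO EpiLCs, against 94.7, 95.7 and 105 CPM in WT EpiLCs (log2 1.11, SE 0.04, edgeR adjusted p = 4.63e-19). Tfcp2l1 had 76.5, 82.4 and 70.5 CPM in Pcgf2/4 KO EpiLCs, against 32.1, 30.8 and 31.3 CPM in WT EpiLCs (log2 1.30, SE 0.06, edgeR adjusted p = 8.86e-17). Esrrb had 199, 214 and 183 CPM in Pcgf2/4 KO EpiLCs, against 93.8, 94.8 and 94.6 CPM in WT EpiLCs (log2 1.09, SE 0.05, edgeR adjusted p = 5.38e-18). The Pcgf2/4 KO libraries lay together and apart from the WT libraries for each of these 4 genes. Tcl1 (0.86), Zfp42 (0.77) and Nr0b1 (0.60) were higher by under 2-fold, and Nr5a2 at 0.22 (SE 0.11) did not pass. For these 4 members too, the libraries of both groups did not overlap, and again the share of all genes so separated was not counted.

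**Figure D3:**
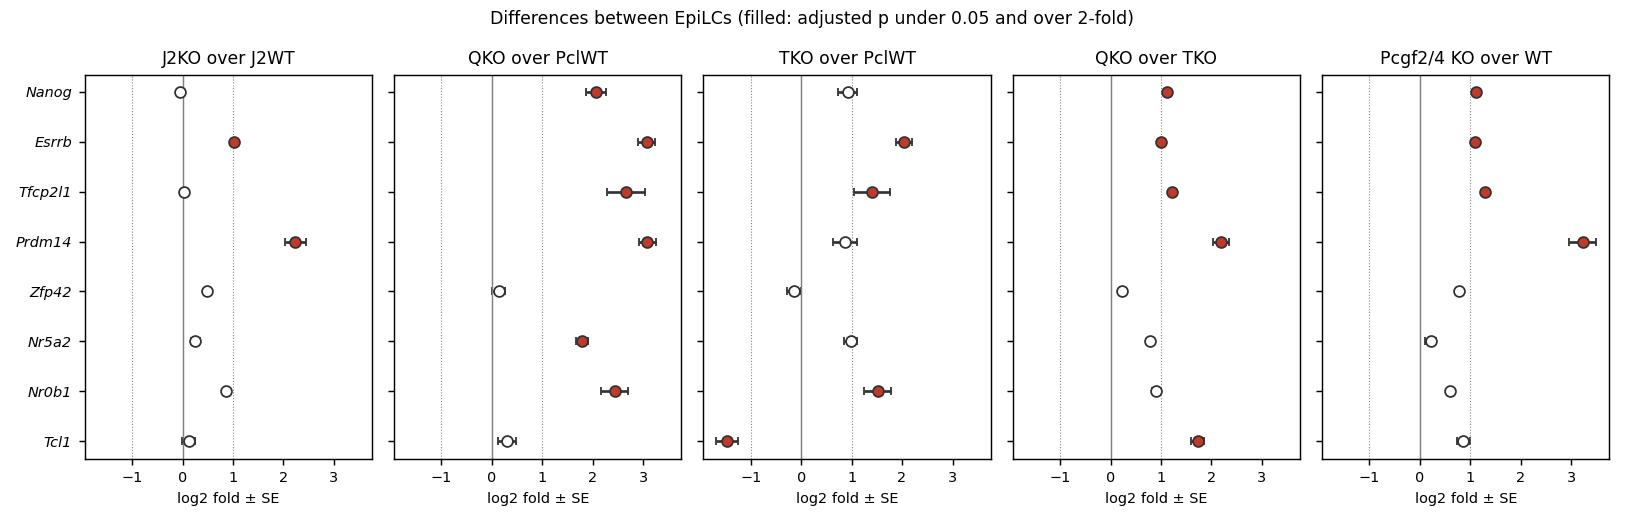
Log2 difference of the 8 genes in 5 EpiLC comparisons, with bars of 1 standard error. Filled points are called, dotted lines mark 2-fold in either direction, and Esrrb lies right of the upper line in all 5 comparisons and Prdm14 in 4.

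In ESCs fewer of the 8 genes were over 2-fold apart between the same mutants and their controls. J2KO ESCs had 0 members past both thresholds of the edgeR test, where 6.82% of all genes tested were called higher and 6.53% lower, and DESeq2 also called 0. All 8 passed at adjusted p alone, a rule by which 35.3% of all genes tested were higher and 35.6% lower, with Nanog (0.38), Esrrb (0.30), Prdm14 (0.54), Zfp42 (0.41), Nr5a2 (0.21) and Nr0b1 (0.51) higher and Tfcp2l1 (-0.17) and Tcl1 (-0.59) lower on the log2 scale. Prdm14 moved most among the higher ones, with 69.1, 71.6 and 70.2 CPM in J2KO ESCs against 49.0, 48.2 and 47.0 CPM in J2WT ESCs. Tfcp2l1 had 1528, 1563 and 1574 CPM in QKO ESCs and 1564, 1676 and 1565 CPM in TKO ESCs, against 493, 593 and 569 CPM in PclWT ESCs. It rose in both mutants, at log2 differences of 1.47 (SE 0.05) and 1.50 (SE 0.06). Nr0b1 also rose in both, with 168, 184 and 166 CPM in QKO ESCs and 208, 189.8 and 185 CPM in TKO ESCs, against 84.2, 78.1 and 75.7 CPM in PclWT ESCs. Nr5a2 rose in QKO ESCs, which had 198, 189 and 195 CPM against 84.2, 85.0 and 85.9 CPM in PclWT ESCs (log2 1.17, SE 0.05), and was higher by under 2-fold in TKO ESCs (0.51). In all, 3 members were called higher in QKO ESCs and 2 in TKO ESCs, where 5.8% and 6.54% of all genes tested were. Between QKO and TKO ESCs the edgeR test and DESeq2 each called 0 members, where 1.4% of all genes tested were called higher and 3.13% lower. By the edgeR test 7 members had an unadjusted p under 0.05, but the share of all genes by that rule was not counted. At adjusted p alone Nr5a2 (0.64) and Prdm14 (0.41) were higher in QKO, where 20.5% of all genes tested were higher and 21.9% lower by that rule. Nanog, Esrrb, Zfp42 and Nr0b1 were lower in QKO ESCs by 0.17 to 0.24 on the log2 scale.

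At adjusted p alone, whatever the fold, more of the 8 genes passed in most comparisons of mutants, and so did larger shares of all genes. In EpiLCs, 5 members were then higher in J2KO against J2WT, where 33.7% of all genes tested were, and 6 in TKO against PclWT, where 16.2% were. In QKO against TKO EpiLCs all 8 were higher, where 21.7% of all genes tested were, and in Pcgf2/4 KO EpiLCs 7 were, where 28.4% were. In ESCs, 6 members were higher in QKO and 7 in TKO, against PclWT, where 33.9% and 33.1% of all genes tested were. Counting both directions, J2KO moved 8 members by this rule in ESCs, where 35.3% of all genes tested were higher and 35.6% lower, and 5 in EpiLCs. TKO moved 7 in each and QKO 6 in each. Shares of all genes in both directions are not given for these others, so the counts do not rank the mutants.

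Differences between lines in the size of the fall were tested directly, as the EpiLC change of one line minus that of another. In J2KO minus J2WT, Prdm14 was called at 1.68 (SE 0.20, edgeR adjusted p = 2.19e-08), 1 of 8 members, where 6.16% of all genes tested were called higher. Esrrb (0.69), Tcl1 (0.69) and Nr0b1 (0.33) fell less in J2KO by under 2-fold, and Nanog fell more (-0.44), at adjusted p alone, by which 26.1% of all genes tested were higher and 27.9% lower. In QKO minus PclWT, Esrrb (2.88, SE 0.17), Prdm14 (2.71, SE 0.15), Nanog (2.05, SE 0.21) and Nr0b1 (1.36, SE 0.26) were called, 4 of 8, where 4.75% of all genes tested were called higher. Tfcp2l1, which was already higher in QKO ESCs, had a difference of 1.19 (SE 0.38, edgeR adjusted p = 0.0565) and was not called. With the replicate number as a block it was 1.23 and called (edgeR adjusted p = 0.0411), which made 5 of 8. It was also called by DESeq2 (adjusted p = 0.0266), without a count filter (edgeR adjusted p = 1.55e-08) and with all libraries of the PclWT family in the fit (edgeR adjusted p = 0.0137). Without PclWT EpiLC replicate 1 it was 0.83, under 2-fold, and the other 4 were again called, Esrrb at 2.73, Prdm14 at 2.60, Nanog at 2.28 and Nr0b1 at 1.69. That fit called 5.54% of all genes tested higher. In TKO minus PclWT, Esrrb was called higher at 1.60 (SE 0.16) and Tcl1 lower at -1.91 (SE 0.22), where 4.42% of all genes tested were called higher and 3.15% lower. At adjusted p alone 4 members were higher, where 8.17% of all genes tested were. Without PclWT EpiLC replicate 1 the same 2 genes were called, at 1.46 and -1.71, while Tfcp2l1 changed to -0.46 (edgeR adjusted p = 1.15e-03), against -0.11 with it, and Nr0b1 to 0.59 (edgeR adjusted p = 3.47e-03), against 0.26 with it. That fit called 5.1% of all genes tested higher and 3.36% lower. In QKO minus TKO, 6 members were called, where 2.68% of all genes tested were called higher. They were Tcl1 (1.84), Prdm14 (1.78), Nanog (1.28), Tfcp2l1 (1.26), Esrrb (1.25) and Nr0b1 (1.07), and only Nr5a2 (0.14) did not pass at adjusted p.

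**Figure D4:**
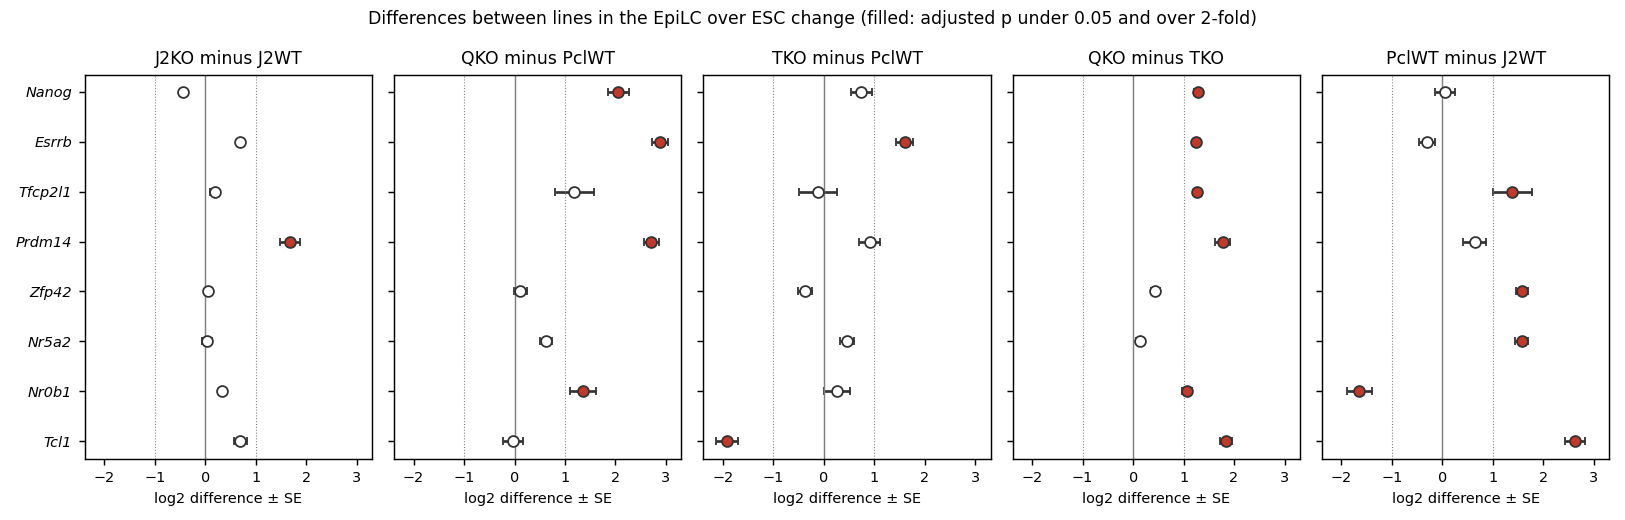
Differences between lines in the log2 change of EpiLCs over ESCs for the 8 genes, with bars of 1 standard error. Filled points are called, and Nanog, Esrrb and Prdm14 lie right of the upper dotted line in both QKO minus PclWT and QKO minus TKO.

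The control lines also differed from each other. In PclWT minus J2WT, Tcl1 (2.63, SE 0.20), Zfp42 (1.58, SE 0.12), Nr5a2 (1.57, SE 0.13) and Tfcp2l1 (1.38, SE 0.39) fell less and Nr0b1 fell more (-1.65, SE 0.25), where 11.4% of all genes tested were called higher and 10.1% lower. Nanog at 0.06 (SE 0.19), Esrrb at -0.31 (SE 0.16) and Prdm14 at 0.64 (SE 0.23) did not pass. Without PclWT EpiLC replicate 1 the same 5 genes were called, at 2.45 for Tcl1, 1.49 for Zfp42, 1.67 for Nr5a2, 1.74 for Tfcp2l1 and -1.97 for Nr0b1. That fit called 12.1% of all genes tested higher and 11.2% lower. Nanog was then at -0.17 (edgeR adjusted p = 0.0488) and Prdm14 at 0.76 (edgeR adjusted p = 0.0280). Of 12 formative and primed genes, all were tested and 10 were called lower in PclWT minus J2WT, at a median of -1.83 on the log2 scale. Without that replicate 9 were, at a median of -1.77. Summed over these 12 genes, PclWT EpiLC libraries had 1339 to 1471 CPM, the lowest of the EpiLC groups. The sums were 3184 to 3572 CPM in QKO, 2630 to 2795 CPM in TKO and 4461 to 4564 CPM in J2WT EpiLCs. Against PclWT EpiLCs, 6 of 12 tested were called higher and 0 lower in TKO, where 6.91% and 7.16% of all genes were. In QKO 2 of 11 tested were called higher and 2 lower, where 6.12% and 7.58% were. The list's median log2 difference was 0.95 in TKO but -0.35 in QKO, so the higher QKO sum came from part of the list. Without PclWT EpiLC replicate 1, QKO had 2 of 11 called higher and 1 lower, at a median of -0.21. TKO then had 6 of 12 called higher and 0 lower, at a median of 1.07. Those fits called 6.82% of all genes tested higher and 6.7% lower in QKO, and 7.07% and 5.91% in TKO.

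Other naive genes were taken from a list of 12, of which 11 were tested in each EpiLC comparison. In QKO against PclWT EpiLCs, 7 were called higher and 3 lower, at a median of 1.82 against -0.03 over all genes. In that comparison 6.12% of all genes tested were called higher and 7.58% lower. Dppa3 (-7.21), known from germ cells and the early embryo, fell, while Tbx3 (3.98), a T-box factor, Fgf4 (3.23), a growth factor, and Klf5 (3.15), a Krüppel-like factor, rose. In TKO against PclWT EpiLCs, 6 were called higher and 3 lower, where 6.91% and 7.16% of all genes tested were. They were led by Gbx2 (4.18), Dppa3 (-4.15), Klf2 (-2.52) and Klf5 (2.23). With PclWT EpiLC replicate 1 left out, 7 were called higher and 3 lower in QKO, at a median of 1.53, and 7 higher and 3 lower in TKO, at a median of 1.48. Those fits called 6.82% of all genes tested higher and 6.7% lower in QKO, and 7.07% and 5.91% in TKO. In J2KO against J2WT EpiLCs, Klf2 (1.40) and Klf4 (1.10) rose and Gbx2 (-1.28) fell, where 6.09% of all genes tested were called higher and 2.74% lower. In Pcgf2/4 KO against WT EpiLCs, 4 were called higher and 2 lower, where 1.91% and 3.92% of all genes tested were. They were led by Dppa3 (-2.79), Tbx3 (1.78), Tet2 (1.46) and Klf4 (1.19). The wider list thus moved in both directions in each mutant, whereas among the 8 members only Tcl1 in TKO was called lower in EpiLCs.

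Markers of other cell types moved in some of the same comparisons. Summed over 7 primitive endoderm markers, EpiLC libraries had 51.3 to 53.9 CPM in QKO and 105 to 117 CPM in TKO, against 15.5 to 21.5 CPM in PclWT. In QKO 4 of 5 markers tested were called higher, and in TKO 6 of 6, led in both by Gata6. Of all genes tested, 6.12% were called higher in QKO and 6.91% in TKO. Only 2 of the 7 markers passed the count minimum between PclWT EpiLCs and PclWT ESCs. The others were tested here only through their counts in the mutants, so a call of higher was nearly fixed for them. Their calls are thus not comparable with the shares of all genes. Without PclWT EpiLC replicate 1 the counts were again 4 of 5 and 6 of 6, where 6.82% and 7.07% of all genes tested were. Sox17 then led in both, at 5.69 in QKO and 6.34 in TKO on the log2 scale. The sums were 7.76 to 8.29 CPM in J2KO against 21.8 to 23.2 CPM in J2WT, and 25.9 to 28.2 CPM in Pcgf2/4 KO against 8.61 to 11.5 CPM in WT. In J2KO 3 of 4 endoderm markers tested were called lower and 1 higher, where 2.74% and 6.09% of all genes tested were. Between QKO and TKO the members were higher in QKO while 3 of 6 endoderm markers tested were called lower there, where 3.39% of all genes tested were. Summed over 6 germ cell genes, EpiLC libraries had 349 to 372 CPM in QKO and 204 to 206 CPM in TKO, against 110 to 153 CPM in PclWT. Kit, a receptor kinase, made up most of the QKO sum at 239 ± 3.49 CPM, and Dazl, an RNA-binding protein of germ cells, rose in QKO by 1.31 on the log2 scale. The sums were 79.1 to 85.2 CPM in J2KO against 46.3 to 51.0 CPM in J2WT, and 87.9 to 95.4 CPM in Pcgf2/4 KO against 63.4 to 66.4 CPM in WT. Summed over 4 neuroectoderm markers, EpiLC libraries had 59.0 to 68.0 CPM in QKO and 123 to 131 CPM in TKO, against 26.8 to 34.8 CPM in PclWT. In QKO 1 of 3 tested was called higher and 1 lower, where 6.12% and 7.58% of all genes tested were. In TKO 2 of 3 were called higher and 0 lower, where 6.91% and 7.16% were. Neuroectoderm sums were 29.6 to 30.3 CPM in J2KO against 54.1 to 55.7 CPM in J2WT, and 29.9 to 32.2 CPM in Pcgf2/4 KO against 61.9 to 66.7 CPM in WT. In J2KO 1 of 3 tested was called lower and 0 higher, where 2.74% and 6.09% of all genes tested were. PclWT EpiLC replicate 1 had the lowest sum of its group for the endoderm, germ cell and neuroectoderm lists. None of these markers was at 0 in all libraries of an EpiLC group. The part of other cell types in the members' differences was not tested.

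Across the 12 group means, Pearson's r between members of log2 CPM ran from 0.508 for Nanog and Zfp42 to 0.969 for Esrrb and Tfcp2l1. Nanog and Tfcp2l1 (0.964), Esrrb and Prdm14 (0.957) and Tfcp2l1 and Nr5a2 (0.955) came next, and Zfp42 had no r over 0.747. Genes of the mitochondrial genome and genes with clone or predicted-gene names were left out of the search for the nearest genes. Among the other expressed genes, the pattern of Nanog was most like that of Gprc5a (0.971), Esrrb that of Epha4 (0.982) and Tfcp2l1 that of Zbtb43 (0.986). Prdm14 was most like Pcsk6 (0.979), which was also the third nearest gene to Esrrb (0.977). Zfp42 was most like Washc5 (0.981), Nr5a2 most like Tbx3 (0.985), Nr0b1 most like Mybl2 (0.983) and Tcl1 most like Cmtm7 (0.980). The groups share lines, stages and depth, so these values describe the 12 means only.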

How the data were processed

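Poly(A) RNA of 36 libraries was sequenced, and groups were taken from the labels. The authors aligned reads to GRCm38 with STAR and deposited raw counts per gene and library, without normalization. The column of counts without strand was used here, so genes on opposite strands that overlap cannot be told apart. The members overlap no other gene with more than 4 counts. Reads in no gene, in several or unmapped (23.22% to 30.24% of a library) were left out.

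Counts were tested with edgeR 4.0.16 in R 4.3.3 (quasi-likelihood, TMM, Benjamini-Hochberg) over genes averaging 15 or more normalized counts, on the libraries of each comparison only. There were 14 comparisons of groups and 5 of changes between lines. Standard errors came from the F statistic. CPM were scaled by TMM over all libraries, RPKM used GENCODE exon lengths, and correlations used a prior count of 2. Counts were also simulated with a common dispersion and no replicate that stood apart, unlike the real PclWT EpiLCs. On these the fit recovered 98% of genes with a log2 difference of 1.5 in QKO against PclWT EpiLCs, over 12863 genes. In QKO minus PclWT it recovered 93.9%.

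All 8 members are named. Of other lists, up to 4 called genes with the largest difference in a comparison are named, and for each member the genes with the highest r. The latter leave out genes of the mitochondrial genome and genes with clone or predicted-gene names. Members and lists were chosen with earlier results of these data known. Alternatives were DESeq2 1.42.0, RLE, other filters, no size threshold, all libraries of a family, a replicate block and each library left out. Leaving PclWT EpiLC replicate 1 out of the counts of other lists and of the shares kept was chosen after seeing the data. PclWT EpiLC and ESC libraries with the same number varied together (correlations 0.457, 0.246 and 0.209, the highest with another number 0.259). All were over 0.1, the limit of the pairing check. Since 0.259 exceeds 0.246 and 0.209, the numbers do not identify pairs clearly, and the labels do not say what the numbers mark. The main fits were not paired, and a fit with the replicate number as a block was run beside them. With this block all 8 members were again called lower.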

Additional observations from a re-analysis of the deposited data

Results flagged for a closer look

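Changes of EpiLCs over ESCs that differed between lines, by a direct test of the difference, are listed here with their log2 values. Between J2KO and J2WT this held for Prdm14 (1.68). Between QKO and PclWT it held for Nanog (2.05), Esrrb (2.88), Prdm14 (2.71) and Nr0b1 (1.36). Between TKO and PclWT it held for Esrrb (1.60) and Tcl1 (-1.91). Between QKO and TKO it held for Nanog (1.28), Esrrb (1.25), Tfcp2l1 (1.26), Prdm14 (1.78), Nr0b1 (1.07) and Tcl1 (1.84). Between the control lines PclWT and J2WT it held for Tfcp2l1 (1.38), Zfp42 (1.58), Nr5a2 (1.57), Tcl1 (2.63) and Nr0b1 (-1.65). Positive values mean a smaller fall in the line named first. Esrrb, Prdm14, Nr0b1 and Tcl1 differed in 3 of these 5 comparisons each, and Zfp42 and Nr5a2 only between the control lines. Tfcp2l1 in QKO against PclWT (1.19, edgeR adjusted p = 0.0565) was not called but was with a replicate block (1.23, edgeR adjusted p = 0.0411). Comparisons that use PclWT share its libraries.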

How the results depend on the processing

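DESeq2, RLE normalization and other count filters moved no count of called members by over 1.5 times, and neither did the replicate block. Without the 2-fold threshold, the members called higher were 5 in J2KO against J2WT EpiLCs, 6 in TKO against PclWT EpiLCs, 8 in QKO against TKO EpiLCs, 7 in Pcgf2/4 KO EpiLCs, 6 in J2KO ESCs with 2 lower, 7 in TKO ESCs, 6 in QKO ESCs, and 2 in QKO against TKO ESCs with 4 lower. In differences between lines they were 4 in J2KO minus J2WT with 1 lower, and 4 in TKO minus PclWT. By that rule 8.17% to 35.6% of all genes tested were called in these comparisons and directions. With all libraries of the J2 family in the fit, 1 member was called higher in J2KO EpiLCs, since Esrrb came to 0.99. The difference of Tfcp2l1 in QKO minus PclWT was called by DESeq2 (adjusted p = 0.0266) and, by edgeR, with the replicate block (adjusted p = 0.0411), without a count filter (1.55e-08) and with all libraries of the PclWT family (0.0137), and the block changed no other call. No other pair of groups passed the pairing check, although each J2KO EpiLC library deviated most like the J2WT EpiLC library of its number (correlations 0.0273, 0.0722 and 0.0361), a hint from the data only.

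With 1 library left out, the members called higher ranged from 1 to 2 in J2KO EpiLCs, 2 to 4 in TKO EpiLCs, 4 to 5 in QKO against TKO EpiLCs, 1 to 2 in TKO minus PclWT and 4 to 5 in QKO minus PclWT. Signs turned only for members that were not called. They ranged in J2KO EpiLCs from -0.0817 to 0.0014 for Nanog and -0.0008 to 0.0735 for Tfcp2l1, in QKO ESCs from -0.0052 to 0.0589 for Nanog and -0.0225 to 0.0759 for Zfp42, in J2KO minus J2WT from -0.0085 to 0.0732 for Nr5a2, in TKO minus PclWT from -0.462 to 0.125 for Tfcp2l1, in QKO minus PclWT from -0.138 to 0.157 for Tcl1, and in PclWT minus J2WT from -0.167 to 0.160 for Nanog. With a prior count of 0.5, the genes most like Nr0b1 shared 2 of 3, and Slc1a1 (0.9825) came before Cmtm7 (0.9802) for Tcl1. Ranking members by CPM in place of RPKM kept 31 of 96 ranks. Depth limits Prdm14 most, with 2 to 10 reads in WT EpiLC libraries.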
